A study of Homo sapiens with 30 samples.

Results

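Heat shock proteins and their DNAJ partners are chaperones found mainly in the cytosol, nucleus and mitochondria, and 74 of their genes were followed here through run-on sequencing, hNABP2 ChIP-seq and DRIP-seq of HT1080 cells. HT1080 is an established human fibrosarcoma line. The genes were taken by symbol from the 26475 rows of the deposited run-on count table: the HSPA, HSPB, HSPD, HSPE and HSPH families, the HSP90A genes, the DNAJA, DNAJB and DNAJC genes, and the heat shock factors HSF1 and HSF2. Antisense genes, symbols with a pseudogene ending, the unrelated proteoglycan gene HSPG2 and 4 chaperones of the endoplasmic reticulum (HSPA5, HSP90B1, DNAJB9 and DNAJC3) were left out. HSPA7 and DNAJB3, which RefSeq lists as transcribed pseudogenes, stayed in by their symbols, as did J proteins and an HSP70 of the endoplasmic reticulum such as DNAJB11, DNAJC10 and HSPA13. The choice went by symbol and not by a measured value, but it was made with earlier results of these data known. All 74 symbols were found in RefSeq, HSPB11 under its present symbol IFT25.

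The series holds 30 libraries from HT1080 cells at passages 10 to 15. The 18 run-on libraries came from nuclei of WT, hNABP2 (hSSB1)-KO and hNABP1 (hSSB2)-KO cells, each with NTP and with No NTP, in 3 repeats, and the labelled RNA was pulled down with a BrdU antibody. The 4 ChIP libraries came from WT cells, 2 with a homemade hNABP2 antibody and 2 with rabbit IgG. The 8 DRIP libraries came from WT and hNABP2 KO cells with the S9.6 antibody, which binds RNA:DNA hybrids, with or without RNase H, 2 per group. How the knockouts were made, and whether each is 1 clone, was not given in the labels. The labels do not say that repeats were separate cultures, so SDs and p-values measure the spread between libraries, which may be technical. hNABP2 and hNABP1 are single-stranded DNA binding proteins.

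HSP70 proteins bind exposed hydrophobic stretches of other proteins in a cycle driven by ATP. DNAJ proteins, also called HSP40s, bring clients to HSP70 and stimulate its ATPase through their J domain, and HSPH1 and HSPA4 of the HSP110 group exchange its nucleotide. HSP90 takes over clients at a late stage of folding, small HSPs hold unfolded proteins without ATP, and HSPD1 with its lid HSPE1 forms the folding chamber of mitochondria. Under heat and other proteotoxic stress the factor HSF1 binds heat shock elements, which are alternating GAA and TTC units, and induces many of these genes. Promoters of inducible HSP70 genes are classical examples of promoters that hold a paused RNA polymerase before stress.

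The run-on libraries were shallow, with 5272 to 164357 counts. Repeat 3 held 518349 counts over its 6 libraries, repeat 1 69112 and repeat 2 40060. Libraries labelled hNABP2 KO had 4, 3 and 15 counts of NABP2 with NTP and WT had 4, 0 and 8. For NABP1 the hNABP1 KO label had 0, 1 and 18 and WT 1, 0 and 19, so the counts do not bear out the labels and libraries are called by their label. All 10 mesenchymal marker genes had counts (3619 in all, 0.153% to 4.20% of a library), but COL5A1 alone held 2806 of them and each of the others 12 to 214. Epithelial markers had at most 0.0251%, leukocyte markers at most 0.0208% and neural markers at most 0.0628%, and LYZ had no count. The labels do not give the strand setting of the counting. VIM-AS1 had 3898, 738 and 1428 counts in repeats 1 to 3 and VIM 57, 12 and 145, so a count of a chaperone gene below may include reads of the other strand, and this was not tested. Of the 74 genes, 42 overlap another RefSeq gene. Fewer cells and less RNA per cell cannot be told apart in such bulk libraries.

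DNAJB1, DNAJB6, DNAJC21, HSF1 and HSF2 carried an hNABP2 promoter peak in both ChIP repeats, meaning a peak that the authors' annotation places within 1 kb of a start of that gene. The 250 bases before the start of 4 of them are shown for their heat shock elements, from RefSeq on GRCh38.p14 and 5′ to 3′ along the gene. Capitals mark a pair of units, which is GAANNTTC or TTCNNGAA (each reads the same on both strands), or a run of 3 units, which is GAANNTTCNNGAA or TTCNNGAANNTTC and holds a pair at each end. The windows are chr19:14518398-14518647 (minus strand) for DNAJB1, chr7:157336754-157337003 (plus) for DNAJB6, chr6:122399301-122399550 (plus) for HSF2 and chr5:34929309-34929558 (plus) for DNAJC21.
DNAJB1: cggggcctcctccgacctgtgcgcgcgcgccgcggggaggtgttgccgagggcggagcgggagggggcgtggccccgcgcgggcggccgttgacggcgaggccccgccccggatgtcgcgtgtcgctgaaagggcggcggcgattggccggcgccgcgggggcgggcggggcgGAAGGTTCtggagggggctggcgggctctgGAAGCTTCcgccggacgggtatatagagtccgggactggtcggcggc
DNAJB6: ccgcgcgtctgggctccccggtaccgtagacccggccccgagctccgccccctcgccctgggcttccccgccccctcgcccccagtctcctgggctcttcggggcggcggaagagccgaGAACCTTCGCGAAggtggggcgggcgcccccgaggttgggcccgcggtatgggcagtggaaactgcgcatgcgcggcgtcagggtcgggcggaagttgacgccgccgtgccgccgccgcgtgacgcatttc
HSF2: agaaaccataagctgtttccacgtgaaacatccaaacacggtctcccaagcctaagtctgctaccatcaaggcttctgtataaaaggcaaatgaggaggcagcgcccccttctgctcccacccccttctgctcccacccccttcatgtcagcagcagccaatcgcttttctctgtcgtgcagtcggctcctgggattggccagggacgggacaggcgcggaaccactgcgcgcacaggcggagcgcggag
DNAJC21: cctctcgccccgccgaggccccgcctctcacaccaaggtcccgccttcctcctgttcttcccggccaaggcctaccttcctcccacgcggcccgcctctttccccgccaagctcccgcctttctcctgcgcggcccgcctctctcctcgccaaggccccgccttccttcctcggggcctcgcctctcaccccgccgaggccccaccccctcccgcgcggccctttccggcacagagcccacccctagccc
DNAJB1, the major stress-inducible partner of cytosolic HSP70, held 2 separate pairs, whose first bases lie at -77 and -47 from the start. DNAJB6, which suppresses aggregation of polyglutamine proteins, held a run of 3 units at -131. The windows of HSF2 and DNAJC21, a J protein of ribosome assembly, held neither motif. A ChIP peak of repeat 1 overlapped each of the windows shown. The peaks of repeat 2 lay downstream of these starts and overlapped none of the windows.

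The peak at DNAJB1 was the highest of all promoter peaks of the 74 genes in ChIP repeat 1. It covered chr19:14517752-14518680 with a fold of 7.94 and a -log10 q of 110, rank 82 of 10055 annotated peaks, and its summit lay 42 bases downstream of the start of the window shown. The fold is the authors' value for that peak and the -log10 q its adjusted p-value on a log scale. In repeat 2 the peak covered chr19:14517716-14517946 with a fold of 4.764 and a -log10 q of 2.44, rank 2329 of 2816. DNAJB6 and DNAJC21 were ordered the other way, with folds of 2.45 and 2.57 in repeat 1 and 7.10 and 7.70 in repeat 2. Folds were higher in repeat 2 in general. The median over all promoter peaks was 3.16 in repeat 1 and 5.87 in repeat 2, where the lowest was 3.05. A higher fold in repeat 2 is therefore not read as more hNABP2 at a gene. HSF2 had 3.45 in repeat 1 and 6.43 in repeat 2, at chr6:122399447-122399633 and chr6:122399851-122400135, which do not overlap. Peaks of the other 4 genes overlapped between repeats. HSF1, the master factor of the heat shock response, had a fold of 3.07 (-log10 q 17.9) in repeat 1 and 7.46 (6.81) in repeat 2.

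Promoter peaks were found at 38 of the 74 genes in repeat 1 and at 6 in repeat 2, where DNAJC1 was the gene without a peak in repeat 1. Over all 26473 symbols of the table the shares were 27.1% in repeat 1, 8.74% in repeat 2 and 7.46% in both. Over the 19016 protein-coding genes they were 36.3%, 11.9% and 10.2%, and 71 of the 74 genes are protein-coding. The chaperone genes therefore lay above the protein-coding share in repeat 1 (53.5% of 71) and below it in repeat 2 (8.45%) and in both (7.04%). No test was made of these shares, and the place below in repeat 2 and in both was not kept at a higher minimum -log10 q (last section). The median fold of the 40 promoter peaks in repeat 1 was 3.57 (range 1.67 to 7.94), beside 3.16 over 8981 promoter peaks. The IgG libraries were not analysed here, and the labels do not name the control used for peak calling.

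**Figure D1:**
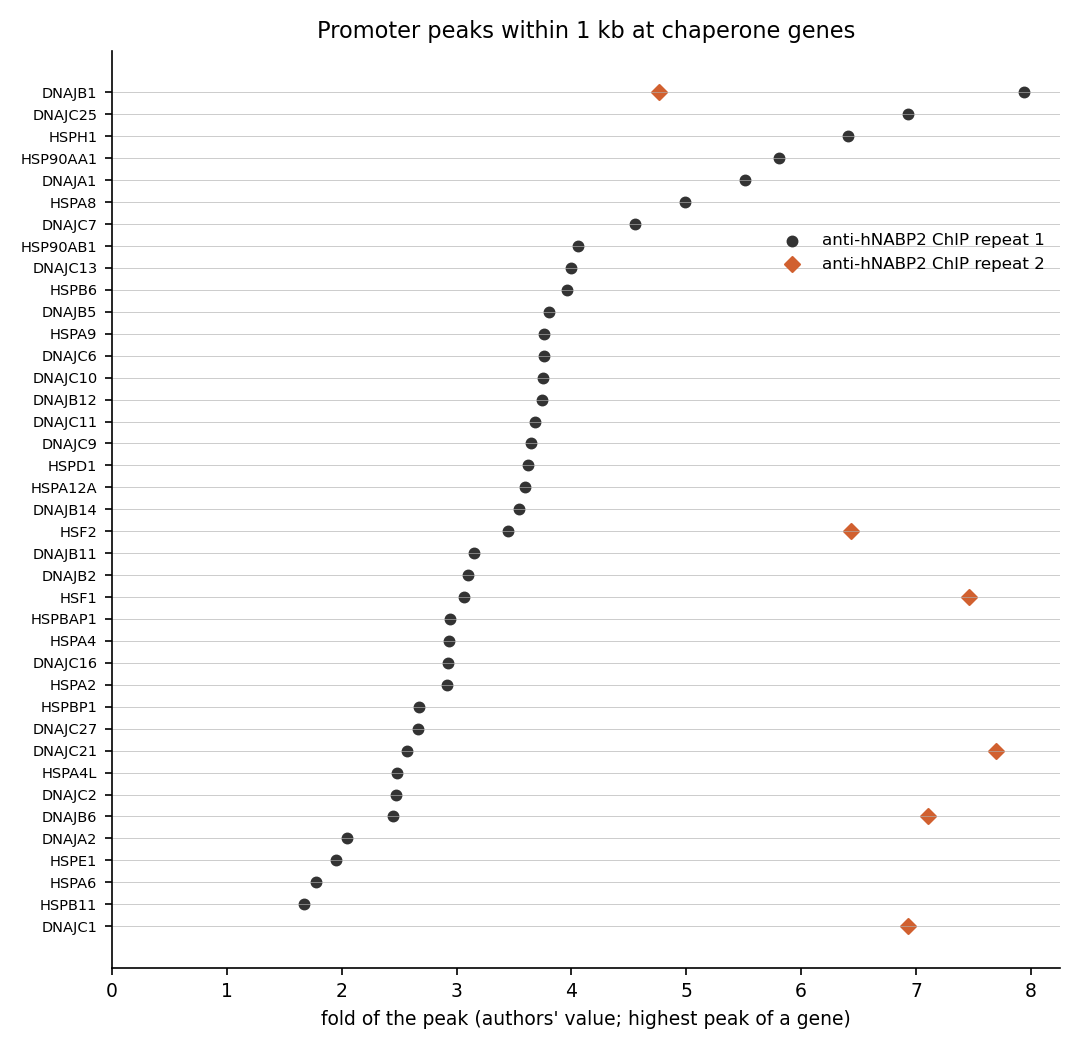
Fold of each chaperone gene's highest promoter peak (x axis, the authors' value, linear from 0) in anti-hNABP2 ChIP repeat 1 (black circles) and repeat 2 (orange diamonds), by gene. DNAJB1 leads repeat 1 at 7.94, and the 6 genes of repeat 2 lie between 4.764 and 7.70. The median over all promoter peaks was 3.16 in repeat 1 and 5.87 in repeat 2, so the scales of the repeats differ.

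Among the HSP90 genes both had promoter peaks in repeat 1. HSP90AA1, the stress-inducible cytosolic HSP90, had a fold of 5.81 (-log10 q 52.5) at chr14:102086585-102087696. HSP90AB1, the constitutive form, had a pair of peaks with folds of 4.06 and 3.60. Of the 15 HSP70 and HSP110 genes 8 had one in repeat 1 and 0 in repeat 2. HSPH1, the main HSP110, led them by fold (6.41), followed by HSPA8, the constitutive HSP70, with peaks of 4.988 and 3.47 on either side of its start. The mitochondrial HSP70 gene HSPA9 had 3.76 and the strictly inducible HSPA6 1.77. HSPA1A and HSPA1B, the main inducible HSP70 genes, had no peak in either repeat, and as near-identical copies their reads may not be placed with certainty.

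Of the 41 DNAJ genes, 20 had a promoter peak in repeat 1: 2 of 4 DNAJA, 7 of 12 DNAJB and 11 of 25 DNAJC genes. Next to DNAJB1 stood DNAJC25 (fold 6.93, -log10 q 79.0), DNAJA1 (5.51 and 54.1), an abundant cytosolic HSP40, and DNAJC7 (4.55 and 34.9), which binds both HSP70 and HSP90. These were singled out after their values were seen. Small HSP genes were grouped by symbol. The group holds HSPB11, a gene of intraflagellar transport, and HSPB2-C11orf52, a lncRNA in RefSeq. Of these 9 genes only HSPB6 (3.96) and HSPB11 (1.67) had a promoter peak, and HSPB1, the most widely studied small HSP, had none. HSPD1 had a peak of 3.62 and HSPE1 one of 1.95. These genes are transcribed away from each other from neighbouring starts.

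A promoter peak does not always belong to the gene that names it. Of the 39 repeat 1 promoter peaks on chromosomes with RefSeq starts at hand, 7 had a summit whose nearest start carried the symbol of another gene. They include DNAJA1, where APTX starts 51 bases from the summit, HSPB6, where PROSER3 starts 7 bases away, and DNAJB11, where TBCCD1 starts 21 bases away. At DNAJC25, also among the 7, the other symbol was the readthrough gene DNAJC25-GNG10. Its start and that of DNAJC25 itself lay equally near, 115 bases from the summit. Of the 64 chaperone genes with a start in the table, 27 had a start of another gene on the opposite strand within 1 kb.

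Over the chaperone genes together, heat shock elements were more frequent than over all genes with a start, which include non-coding ones. The families differed. Of the 64 genes, 20 (31.2%) held a pair within the 250 bases before a start, beside 13.96% of 27305 genes, and 6 (9.38%) held a run of 3 units, beside 0.557%. Per start, 20 of 87 windows of chaperone genes (23.0%) held a pair and 6 (6.90%) a run of 3, beside 11.6% and 0.441% of 35116 windows. The 6 genes were HSP90AA1, HSP90AB1, HSPA8, HSPA6, HSPD1 and DNAJB6, and each had a promoter peak in repeat 1. At HSP90AB1 the peaks did not overlap the window that held its runs. Among the 27 genes without a promoter peak in either repeat, 10 held a pair, HSPA1A, HSPA1B and HSPB1 among them, and 0 a run of 3. Of the 37 genes with one, 10 held a pair. A pair was held by 2 of 2 HSP90, 6 of 12 HSP70 and HSP110 and 4 of 7 small HSP genes. It was held by 2 of 4 DNAJA and 4 of 11 DNAJB genes, but by only 1 of 22 DNAJC genes. Of the mitochondrial chaperonin genes 1 of 3 held it, and the HSP70 partners and HSF2 did not. All of these are matches of letters, not measured sites.

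The windows of the other 5 genes with a run of 3 units are shown because their counts are described next. They were chosen after the values were seen. They are chr14:102087045-102087294 (minus) for HSP90AA1, chr6:44247693-44247942 (plus) for HSP90AB1, chr11:123062137-123062386 (minus) for HSPA8, chr2:197499841-197500090 (minus) for HSPD1 and chr1:161524290-161524539 (plus) for HSPA6. Capitals are as above.
HSP90AA1: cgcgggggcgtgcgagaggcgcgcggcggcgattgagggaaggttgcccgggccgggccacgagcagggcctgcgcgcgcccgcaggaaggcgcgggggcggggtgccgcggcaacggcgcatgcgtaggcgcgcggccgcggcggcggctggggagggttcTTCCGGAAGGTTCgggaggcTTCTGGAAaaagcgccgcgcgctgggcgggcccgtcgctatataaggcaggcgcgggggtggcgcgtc
HSP90AB1: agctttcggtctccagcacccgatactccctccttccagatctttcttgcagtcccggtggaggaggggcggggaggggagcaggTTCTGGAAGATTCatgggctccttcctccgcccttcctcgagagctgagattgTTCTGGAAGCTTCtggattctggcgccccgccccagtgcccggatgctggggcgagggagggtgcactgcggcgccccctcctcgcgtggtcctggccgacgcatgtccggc
HSPA8: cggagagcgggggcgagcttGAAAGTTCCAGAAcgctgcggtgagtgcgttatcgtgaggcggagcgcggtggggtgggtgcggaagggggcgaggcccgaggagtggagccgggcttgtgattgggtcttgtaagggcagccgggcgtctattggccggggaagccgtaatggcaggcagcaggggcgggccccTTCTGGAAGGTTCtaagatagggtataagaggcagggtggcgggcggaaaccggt
HSPD1: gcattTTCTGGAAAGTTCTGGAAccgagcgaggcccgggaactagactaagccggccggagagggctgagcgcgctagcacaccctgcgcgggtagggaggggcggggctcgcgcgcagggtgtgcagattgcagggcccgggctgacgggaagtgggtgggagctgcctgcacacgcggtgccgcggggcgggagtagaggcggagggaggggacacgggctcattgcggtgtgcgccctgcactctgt
HSPA6: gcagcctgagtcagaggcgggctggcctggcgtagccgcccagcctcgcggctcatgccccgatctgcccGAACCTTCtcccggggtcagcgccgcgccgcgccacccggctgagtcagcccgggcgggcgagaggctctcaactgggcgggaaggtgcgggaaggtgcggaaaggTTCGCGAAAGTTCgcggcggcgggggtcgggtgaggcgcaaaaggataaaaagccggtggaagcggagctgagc
The run of 3 units began at -88 in HSP90AA1, at -165 and -112 in HSP90AB1, at -230 and -55 in HSPA8 and at -74 in HSPA6. In HSPD1 overlapping runs began at -245 and -240. The ChIP summit of HSP90AA1 lay 59 bases downstream of this start and that of HSPD1 27 bases downstream. In HSPA6 it lay 150 bases upstream, inside the window.

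Genes with more run-on counts more often had a promoter peak, and the chaperone genes followed the same order. With 30 or more counts over the 18 libraries, 25 of 33 protein-coding chaperone genes (75.8%) had a peak in repeat 1 or repeat 2, beside 68.0% of 6596 protein-coding genes. With 10 to 29 counts it was 12 of 24 (50.0%) beside 37.0% of 6701, and with 0 to 9 counts 2 of 14 (14.3%) beside 4.46% of 5719. The 39 genes with a peak had a median of 48 counts and the 35 without 17.

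**Figure D2:**
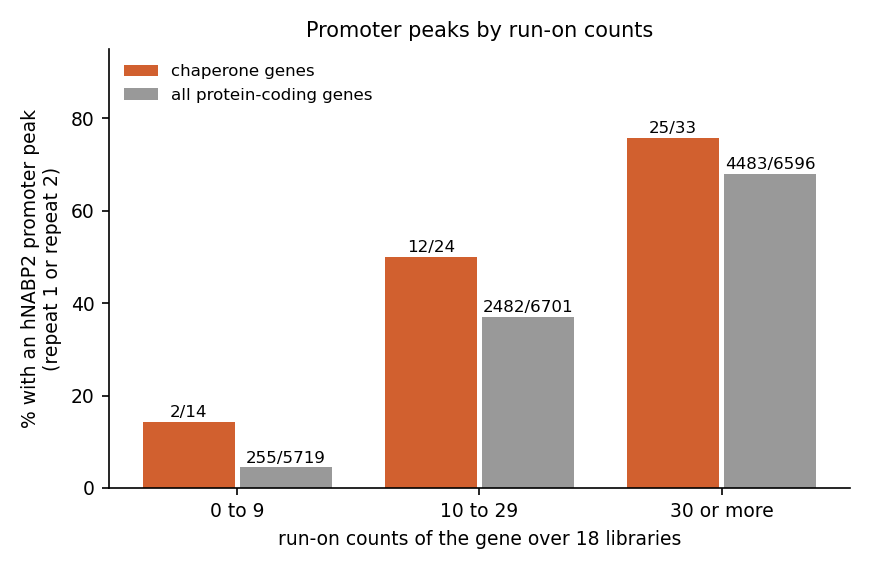
Percent of genes with an hNABP2 promoter peak in repeat 1 or repeat 2 (y axis, linear from 0) by run-on counts of the gene over 18 libraries, for the chaperone genes (orange) and all protein-coding genes (grey), with numbers of genes above the bars. Both rise with the counts, from 14.3% to 75.8% and from 4.46% to 68.0%.

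The 74 genes held 2761 run-on counts, and 69 had at least 1 count. Those without were HSPE1, HSPE1-MOB4, HSPB2, HSPB2-C11orf52 and DNAJC25, and the span of each overlaps a readthrough gene or the gene inside it. Whether the overlap led to their 0 was not tested. Of the 74 genes 57 (77.0%) had 10 or more counts, beside 56.3% of all genes, and 93.2% had any count, beside 86.6%. The labels do not say whether exons or whole genes were counted, so a difference in counts between genes is not one in level. Counts rank the genes below only by how much data each has.

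The chaperone counts of the repeats differed more than those of the genotypes. Their share of the library was 0.653% in repeat 1 (95% Clopper-Pearson interval 0.594% to 0.715%), 0.182% in repeat 2 (0.143% to 0.229%) and 0.432% in repeat 3 (0.414% to 0.450%). With NTP the share was 0.584%, 0.187% and 0.437% in WT repeats 1 to 3, 0.848%, 0.106% and 0.410% with the hNABP2 KO label, and 0.622%, 0.238% and 0.482% with the hNABP1 KO label. The means were 0.403% ± 0.201, 0.455% ± 0.373 and 0.448% ± 0.194 (SD, n = 3), so the groups overlap. Libraries of the same repeat number were taken as pairs. Within repeats 1 to 3 the hNABP1 KO label lay 0.0379, 0.0513 and 0.0453 percentage points above WT (mean 0.0448 ± 0.00675, SD, n = 3 pairs). The 95% intervals of the paired libraries overlapped in 3 of 3 repeats. Without DNAJB2 and HSPD1, chosen after their values were seen, the differences were -0.00721, 0.0513 and -0.0888 points (mean -0.0149 ± 0.0704), so the common direction was not kept. These 2 genes were picked as high with the hNABP1 KO label, so leaving them out lowers the difference by the choice itself. Genes low with that label were not left out likewise. The hNABP2 KO label differed from WT by 0.264, -0.0806 and -0.0271 points. Without NTP the means were 0.449% ± 0.351, 0.338% ± 0.132 and 0.307% ± 0.135 in the same order. With No NTP the hNABP1 KO label in repeat 3 stood lowest of that repeat at 0.222%, beside 0.444% for the hNABP2 KO label and 0.421% for WT. All intervals cover counting error only, and reads without molecular identifiers are not independent molecules.

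**Figure D3:**
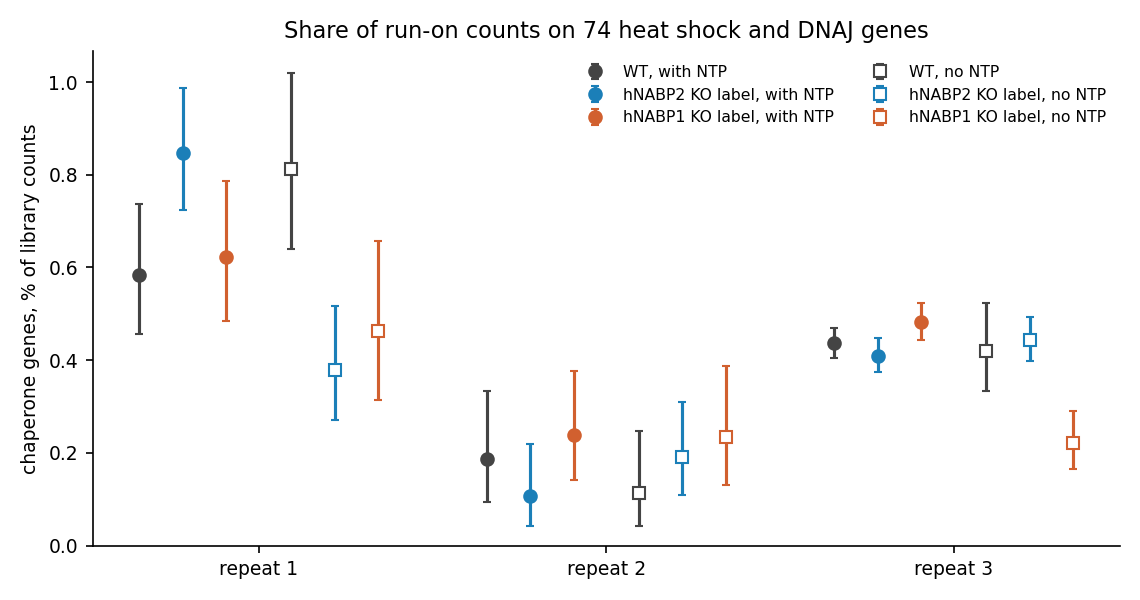
Share of each run-on library's counts that fell on the 74 chaperone genes (y axis, percent, linear from 0), by repeat, genotype label (colour) and NTP (filled with, open without). Bars are 95% Clopper-Pearson intervals. The 6 libraries of repeat 2 lie between 0.106% and 0.238%, below the other repeats apart from 1 library of repeat 3.

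HSP90AA1, HSP90AB1 and HSPA8 held much of the difference between repeats 1 and 2 but little of that between repeats 3 and 2. Without them the chaperone share was 0.284%, 0.182% and 0.390% in repeats 1 to 3, with repeat 3 highest. Together they had 255 counts in repeat 1, 0 in the 6 libraries of repeat 2 and 213 in repeat 3. In CPM, which scales counts to the library total, this was 3690 CPM in repeat 1 and 411 CPM in repeat 3, while 0 counts in repeat 2 allow up to 74.9 CPM (3 counts). Of 84 genes with 60 or more counts in repeat 1, only 4 had none in repeat 2, and 3 of the 4 were these chaperones (the other was EIF4B). The minimum of 60 was set after the values were seen.

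In the following counts are given in the order WT, hNABP2 KO label and hNABP1 KO label. HSP90AA1 had 14, 41 and 15 counts in repeat 1 and 31, 18 and 27 in repeat 3 with NTP. With No NTP it had 14, 2 and 6 in repeat 1 and 2, 11 and 2 in repeat 3. The library with the hNABP2 KO label in repeat 1 stands highest, and the groups overlap. HSP90AB1 had 9, 43 and 13 in repeat 1 and 19, 14 and 8 in repeat 3 with NTP, and 23, 4 and 9 and then 22, 17 and 1 with No NTP. Its highest WT value, 2495 CPM, came from a library without NTP. HSPA8 had 8, 24 and 3 and then 21, 6 and 9 with NTP, and 16, 6 and 5 and then 2, 3 and 0 with No NTP. All 3 were at 0 in each library of repeat 2. For HSP90AA1 with NTP the means were 452 ± 627, 750 ± 1167 and 529 ± 723 CPM (SD, n = 3), with SDs above the means.

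Other HSP70 and HSP110 genes gave less data. HSPH1 had 28, 12 and 11 in repeat 3 with NTP and 3, 10 and 1 without. In repeat 1 it had 1, 3 and 4 with NTP and 0, 0 and 1 without, and in repeat 2 0, 0 and 1 with NTP and 0, 2 and 0 without. HSPA9 had 12, 10 and 19 in repeat 3 and 3, 6 and 5 in repeat 1 with NTP, and 3, 5 and 0 and then 1, 1 and 1 without, with 1 count in repeat 2 (the hNABP2 KO label, No NTP). HSPA1A and HSPA1B had 23 and 28 counts in all, and HSPA6, which is silent in most unstressed cells, 48, all of them in repeat 3. HSPA7, a near copy of HSPA6, had 5. HSPBP1, a nucleotide exchange factor of HSP70, had 19, 11 and 8 in repeat 3 and 2, 0 and 3 in repeat 1 with NTP, and 0, 10 and 0 and then 0, 1 and 2 without, and none in repeat 2. The counts of these genes came mostly from repeat 3, where each label is 1 library for each NTP condition.

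Among the DNAJA and DNAJB genes DNAJB2 stood apart. DNAJB2, a neuron-enriched J protein that sorts ubiquitinated clients, had 13, 8 and 86 counts in repeat 3 with NTP and 0, 14 and 2 without, and none in repeats 1 and 2. The library with the hNABP1 KO label is the high one. DNAJB1 had 32, 19 and 20 in repeat 3 and 1, 3 and 1 in repeat 1 with NTP, and 4, 19 and 2 and then 1, 2 and 0 without, with none in repeat 2. DNAJA1 had 22, 7 and 14 in repeat 3 and 2, 7 and 1 in repeat 1 with NTP, and 3, 9 and 0 and then 3, 0 and 0 without, with none in repeat 2. For both genes the 3 labels overlap.

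The DNAJC genes, the most diverse class of J proteins, held 30.2% of the chaperone counts, and 23 of 25 had 10 or more. DNAJC4 had 17, 12 and 8 in repeat 3 with NTP and 2, 6 and 13 without. Unlike the HSP90 genes it was present in repeat 2, with 1, 1 and 5 with NTP and 1, 1 and 4 without, and nearly absent from repeat 1 (1 count in WT with NTP). DNAJC11, a J protein of the mitochondrial membranes, had 22, 11 and 11 in repeat 3, 1, 0 and 4 in repeat 1 and 1, 0 and 1 in repeat 2 with NTP. Without NTP it had 1, 9 and 0, then 3, 0 and 0, then 0, 2 and 1. DNAJC7 had 20, 13 and 6 in repeat 3 and 0, 1 and 0 in repeat 1 with NTP, and 2, 13 and 0 and then 1, 1 and 0 without, with none in repeat 2.

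DNAJC14 and DNAJC9 complete the 15 genes with most counts. DNAJC14 had 13, 12 and 2 in repeat 3, 5, 1 and 4 in repeat 1 and 1, 0 and 1 in repeat 2 with NTP, and 1, 5 and 5, then 2, 1 and 1, then 0, 1 and 1 without. DNAJC9, a co-chaperone of histones, had 16, 6 and 18 in repeat 3 and 1, 0 and 0 in repeat 1 with NTP, and 0, 10 and 1 and then 2, 2 and 0 without, with none in repeat 2. DNAJC9-AS1, annotated on its other strand, had 6, 0 and 22 counts in repeats 1 to 3 beside 5, 0 and 51 of DNAJC9.

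**Figure D4:**
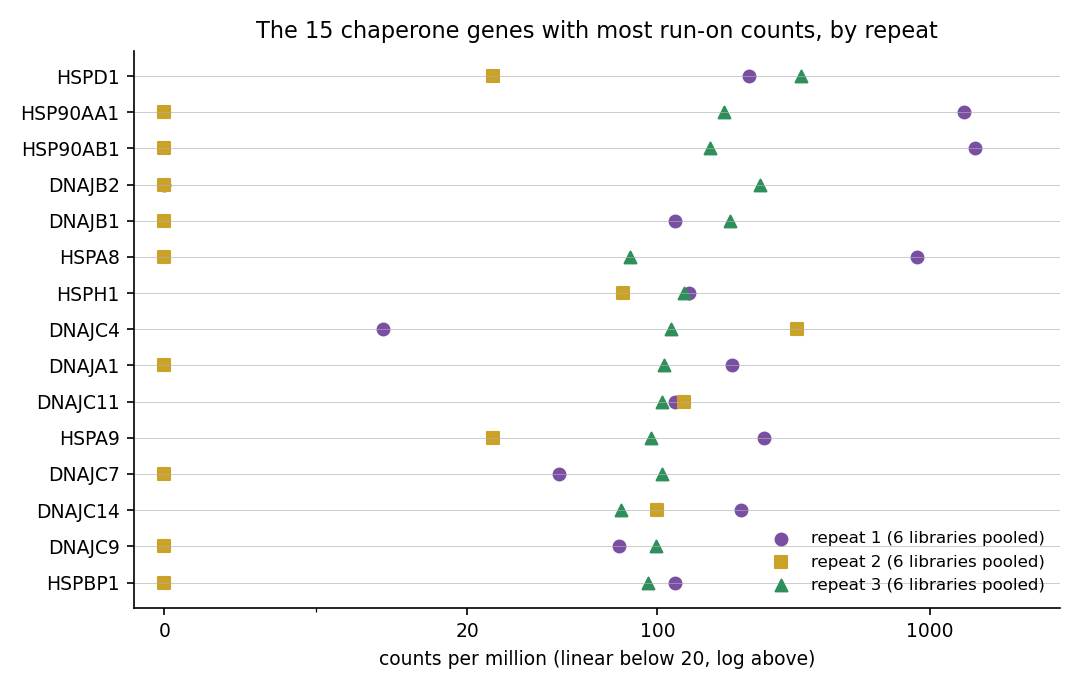
Run-on CPM (x axis, linear below 20 and logarithmic above) of the 15 chaperone genes with most counts, each repeat pooled over its 6 libraries. HSP90AA1, HSP90AB1 and HSPA8 are highest in repeat 1 and at 0 in repeat 2, and DNAJC4 is highest in repeat 2.

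Of the 73 chaperone counts in repeat 2, 40 fell on DNAJC4 (13), HSPB6 (8), DNAJC17 (7), DNAJB5 (7) and DNAJC11 (5). HSPB6, a small HSP of muscle, had 3, 0 and 1 counts in repeat 2 with NTP and 2, 0 and 2 without. The 9 genes grouped by symbol as small HSPs held 98 counts in all. Their best known member HSPB1 had 6 and HSPB8 8. HSF1 had 11, 14 and 12 counts in repeat 3 with NTP and 2, 5 and 2 without. In repeat 1 it had 1, 2 and 0 with NTP and none without, and in repeat 2 0, 1 and 1 with NTP and none without. HSF2 had 17, 5 and 2 in repeat 3 and 0, 1 and 0 in repeat 1 with NTP, and 0, 3 and 1 and then 0 in all without, with none in repeat 2. In repeat 3 with NTP HSF1 had 11 to 14 counts under each label and HSF2 most in WT, with 1 library each.

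Whether the chaperone genes changed in the knockouts was tested with the quasi-likelihood test of edgeR over all genes that passed its filter on low counts. In the 9 libraries with NTP 129 genes passed, and HSP90AA1 was the only chaperone gene among them. Its log2 fold change was 0.40 (SE 1.49) in the hNABP2 KO label over WT, 0.28 (SE 1.50) in the hNABP1 KO label over WT and 0.12 (SE 1.48) between the KO labels, with adjusted p of 0.99, 1.0 and 1.0 by edgeR. The 95% interval of the first runs from -2.90 to 3.70, so that changes of several fold either way were not detectable. In all 3 comparisons 0% of genes passed the adjusted p of 0.05, and 1, 1 and 0 of 129 had an unadjusted p under 0.05. DESeq2 called 0 genes (1, 2 and 1 at an unadjusted p under 0.05) and limma voom 0 (1, 2 and 0). The comparisons with WT share their control libraries.

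With a minimum of 10 counts over the 9 libraries 13447 genes were tested, 57 of them chaperone genes, and edgeR called 0% (41, 177 and 275 genes had an unadjusted p under 0.05). Libraries of the same repeat number were again taken as pairs. With the repeat as a block edgeR called 0% for the hNABP2 KO label over WT, 0.0446% for the hNABP1 KO label over WT (6 genes) and 0.0967% between the KO labels (13 genes). None was a chaperone gene, and 0, 2 and 3 chaperone genes had an unadjusted p under 0.05. The median log2 fold change of the 57 was -0.07, 0.08 and 0.17, beside 0.09, -0.05 and 0.13 over all genes tested. For the hNABP1 KO label over WT 31 chaperone genes lay higher and 26 lower.

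Libraries with NTP were compared with those without in each genotype over all 18 libraries. There 211 genes passed the filter, HSP90AA1 and HSP90AB1 among them, and 0% were called in each genotype. HSP90AA1 had a log2 fold change of 0.60 (SE 1.58) in WT, 2.12 (SE 1.61) with the hNABP2 KO label and 2.31 (SE 1.71) with the hNABP1 KO label. HSP90AB1 had -1.54 (SE 1.63), 1.43 (SE 1.62) and 0.98 (SE 1.75). The adjusted p-values from edgeR were 0.98 or more. Unadjusted p-values under 0.05 were found for 1, 2 and 7 of 211 genes in this order with edgeR. DESeq2 called 0 (1, 2 and 8) and limma voom 0 (0, 1 and 6). With 10 counts and the block 14907 genes were tested. Then 0% were called for NTP in WT, 0% for the hNABP2 KO label and 0.00671% (1 gene) with the hNABP1 KO label, and no chaperone gene was called. Of the 57 chaperone genes 46, 33 and 47 lay higher with NTP, with median log2 fold changes of 0.73, 0.24 and 2.21 beside 0.79, 0.14 and 1.59 over all genes tested.

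DNAJB2 and HSPD1 were the chaperone genes with the largest differences between the hNABP1 KO label and WT in the blocked fit. HSPD1, the mitochondrial chaperonin, had 27, 23 and 97 counts in repeat 3 with NTP and 1, 26 and 1 without. In repeat 1 it had 0, 4 and 5 with NTP and 2, 2 and 2 without, and in repeat 2 a single count (the hNABP2 KO label, with NTP). Its log2 fold change was 2.76 (SE 0.80, adjusted p = 0.14 by edgeR), and that of DNAJB2 3.58 (SE 1.00, adjusted p = 0.11 by edgeR), so neither passed. They rest on the library with the hNABP1 KO label in repeat 3. Without it the values were 1.62 for HSPD1 and -0.068 for DNAJB2, for which no error could be estimated. Without WT repeat 3 they were 5.97 and 1.01, and neither passed. Without the hNABP1 KO label's repeat 1 both passed, at 2.86 (adjusted p = 0.018) and 3.63 (adjusted p = 0.0055) by edgeR. That fit called 148 of 13354 genes (1.11%). All counts of DNAJB2 lie in repeat 3, so its values rest on a single library per label. Its SE and adjusted p-values therefore do not measure the spread between repeats. Its values without repeat 3 of either label are no estimates of the difference. Both genes were singled out after their values were seen.

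Within repeat 3 with NTP, DNAJB2 had 744.4 CPM with the hNABP1 KO label, beside 69.0 for the hNABP2 KO label and 79.1 for WT. That is 9.94 times the pooled value of the other 2 libraries (interval 6.11 to 16.9). HSPD1 had 840 CPM, beside 198 for the hNABP2 KO label and 164 for WT, which is 4.71 times (3.31 to 6.76). These intervals cover counting error of single libraries and give no test of the genotype. Of 32 chaperone genes with 20 or more counts in the 3 libraries, these 2 reached 3 times, and so did 6.5% of 7441 genes. The median ratio was 0.925 for the chaperone genes and 0.772 for all. The share of chaperone genes past 3 times was close to that of all genes.

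**Figure D5:**
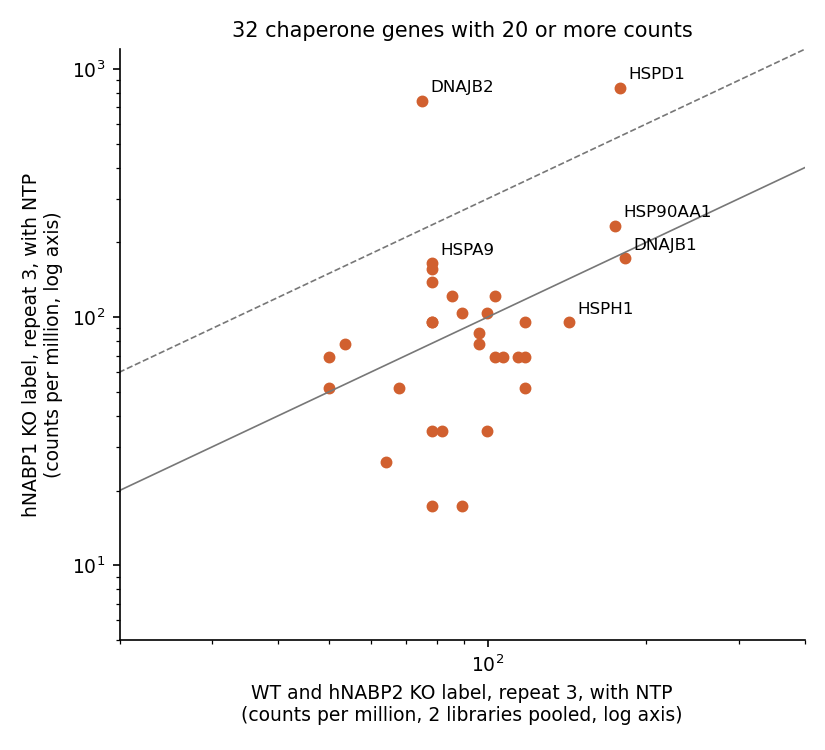
CPM of the 32 chaperone genes with 20 or more counts, in repeat 3 with NTP: the hNABP1 KO label (y axis) against WT and the hNABP2 KO label pooled (x axis), both logarithmic. The solid line marks equal values and the dashed line 3 times, which DNAJB2 and HSPD1 exceed.

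Peaks that the authors called on the same library also stood at these genes. The list of the hNABP1 KO label in repeat 3 holds 9965 peaks, while the lists of the other 8 run-on libraries with NTP hold 94 to 518. It had peaks inside 27 of the 74 genes (36.5%), beside 26.7% of the 25341 genes with a RefSeq span and 32.3% of the protein-coding ones. At DNAJB2 the peak had a fold of 35.6 and its summit lay 62 bases from the start. At HSPD1 the peak had 33.8, with its summit inside the gene, 170 bases from its upstream start. The highest, 73.2, was at HSPB11, a gene of intraflagellar transport, and DNAJC13, which acts in endosomes, had 38.8 although the gene had only 2 counts in that library. A high peak in these lists thus did not always come with many counts.

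The other peaks of that library inside chaperone genes were lower. HSP90AA1 had a fold of 23.9, HSPA9 14.2, DNAJC25 12.9, DNAJC9 11.5, HSF2 10.84, DNAJC16 9.72 and HSF1 9.58. DNAJB1 had 29.8 and 7.36, but the first has its summit 11 bases from the start of TECR. HSPA12A had 8.49 and 2.84, HSPA6 8.51 and 2.84, DNAJC11 8.42, DNAJB6 7.82, HSPA4L 7.56, DNAJC1 5.47, DNAJA1 5.35, DNAJC19 5.18 and HSPA13 4.73. DNAJB12 had 4.79, DNAJC27 4.31, DNAJA2 3.90, DNAJB5 3.51, HSPE1-MOB4 5.72 near the start of MOB4, and HSPB2-C11orf52 7.56 near the start of DIXDC1. Of the 27 of these 30 peaks whose gene has a RefSeq start in the table, 24 had their summit within 1 kb of it. An hNABP2 ChIP peak of repeat 1 overlapped 21 of the 30 (70.0%), beside 47.1% of the 9965. The 30 were limited to peaks inside genes and lie mostly near starts, while the 9965 lie anywhere. The shares thus cover unlike sets and show no trait of the chaperone genes.

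The other 8 run-on libraries with NTP had 11 peaks inside 10 chaperone genes, with folds of 2.92 to 8.04, and 3 of the 8 had none. WT repeat 3 had them at HSPA6 (fold 7.09, summit 70 bases from its start), DNAJB11 (7.02) and DNAJC9 (5.603), beside 0.975% of all genes. The hNABP1 KO label had HSPA6 (2.92) and DNAJB1 (8.04) in repeat 1, beside 1.66% of genes, and DNAJC13 (2.96) and DNAJC8 (2.94) in repeat 2, beside 1.53%. The hNABP2 KO label had HSP90AB1 (3.10) and DNAJC14 (4.48) in repeat 1, beside 0.675%, and HSPA4 and DNAJB14 (2.96 each) in repeat 2, beside 1.16%. HSPA6 and DNAJC9 were the genes marked near their start both in WT and with the hNABP1 KO label in repeat 3. With 2 or 3 genes in a list, the shares were 2.70% or 4.05% of the 74, and the other 3 lists had 0. As the shares of all genes reached at most 1.66%, any list with 2 of the 74 genes must stand above. These numbers are therefore too small to show an excess, and no test was made of them.

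RNA:DNA hybrids were called at 1 chaperone gene. DNAJC4 had a DRIP peak at chr11:64231158-64231333 in WT repeat 1 (fold 6.252, -log10 q 3.49), with its summit 692 bases from the start, where 0.355% of genes had a peak. WT repeat 2 and both hNABP2 KO lists had none at the 74 genes. These 4 lists hold 13 to 173 peaks. No DRIP peak was called at an HSP70 or HSP90 gene in these lists, which at such numbers says little about hybrids there. The RNase H libraries were not analysed here.

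A list of 41 other chaperones and helpers held co-chaperones of HSP70 and HSP90, prefoldin, the CCT chaperonin and mitochondrial proteases such as LONP1. Of them 40 were in the table and all 40 had counts. Their summed level was 3979, 3245 and 3311 CPM in repeats 1 to 3, but LONP1 alone gave 62 of their 130 counts in repeat 2. Without LONP1 the level was 3704, 1697 and 2655 CPM. The 8 CCT genes, which fold actin and tubulin, had 100 counts in repeat 1, 4 in repeat 2 and 275 in repeat 3, or 1447, 99.9 and 531 CPM. Their level was thus lowest in repeat 2, like that of the HSP90 genes and HSPA8. LONP1 and the CCT genes were singled out after their values were seen. Of the 40, 31 (77.5%) had an hNABP2 promoter peak in repeat 1 and 6 (15.0%) in both repeats: BAG3, BAG5, FKBP4, FKBP5, STIP1 and STUB1. Over all protein-coding genes these shares were 36.3% and 10.2%. Among protein-coding genes with 30 or more counts 68.0% had a peak in repeat 1 or repeat 2. The listed genes were not matched by counts, so their shares show no trait of co-chaperones. BAG3 and STUB1 steer HSP70 clients to degradation, STIP1 joins HSP70 to HSP90, and FKBP4 and FKBP5 serve HSP90 with steroid receptors. The 4 chaperones of the endoplasmic reticulum had peaks in repeat 1 and none in repeat 2, and their level was 883, 0 and 403 CPM in repeats 1 to 3.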

How the data were processed

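The libraries are run-on, ChIP and DRIP sequencing of HT1080 cells. The authors deposited raw read counts per gene symbol for 18 run-on libraries (no normalization per the file headers), and peak lists whose fold (a ratio over local background), -log10 p and -log10 q are in the layout of MACS2. Per the submitters' processing notes, cutadapt 1.18, Bowtie2 2.3.5, SAMtools and MACS2 2.2.1 were used with hg38; the labels give neither their settings nor the counter and its strand setting. Promoter calls are the authors' deposited annotation (within 1 kb).

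Computed here were CPM on the library total, edgeR 4.0.16 quasi-likelihood tests in R 4.3.3 (filterByExpr, TMM, robust fit, Benjamini-Hochberg over all genes tested, threshold 0.05), Clopper-Pearson 95% intervals, overlaps of peaks with RefSeq spans (1 base or more) and motif matches in 250 bases before each start (64 of 74 genes have one). edgeR was tested on simulated data for the hNABP2 KO label over WT, with 8-fold changes among 26475 genes: at the real depth 19 genes passed the filter, all 6 changed ones were called and so were 3 unchanged ones, and at 100 times the depth 180 of 181 changed and 9 unchanged genes of 18322 were called. The simulated libraries were drawn from the same pooled profile with no difference between repeats. In the real data the repeats differ and 129 genes passed the filter. The simulation checks the code and does not give the power of the real test. Alternatives were DESeq2 1.42.0, limma 3.58.1 voom, other scaling and filters, a repeat block and leaving out libraries. A count of 0 allows up to 3 counts. The 9 same-number pairs of libraries with NTP correlated at 0.634 to 0.829 after removing group means (112 genes), and the different numbers at -0.666 to -0.006. Removing group means forces the second down when the first is high. Depth also differs between repeats, and its part in these values was not tested. Libraries of the same number were taken as pairs by their label, and these values do not settle that they are.

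The genes, the lists and the tests were chosen with earlier results of these data known. Named with values are the genes tested, the 15 with most counts, those bound in both ChIP repeats, those with a run-on or DRIP peak (by their peaks) and HSF1 and HSF2; other names were chosen after their values were seen.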

Additional observations from a re-analysis of the deposited data

How the results depend on the processing

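No chaperone gene passed the threshold in any comparison under any normalization, tool, filter or replicate block that kept all libraries. With the replicate block and 10 counts, edgeR called 6 genes for the hNABP1 KO label over WT, 13 between the KO labels and 1 for NTP in the hNABP1 KO label, lower with NTP, where the block alone called 1 gene, higher with NTP. When 1 library at a time was left out, the genes called ran from 0 to 148 for the hNABP1 KO label over WT and from 0 to 98 between the KO labels, and the chaperone genes called from 0 to 2 and from 0 to 1. The highest values came from blocked fits without the hNABP1 KO label's repeat 1. Without its repeat 2 these fits called 20 and 25 genes, and without the hNABP2 KO label's repeat 1 they called 23 between the KO labels. These blocked fits were added after seeing the data. In the NTP comparisons they called 0 to 1 genes in WT and 0 to 3 in the hNABP1 KO label, and 0 in the other 2 comparisons. Unblocked fits without 1 library called 0 genes in all 6 comparisons.

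The direction of HSP90AA1 is not settled. Its log2 fold change with the hNABP2 KO label over WT was -0.068 by limma voom and ran from -1.12 to 0.99 when a library was left out. With the hNABP1 KO label it was -0.81 by voom and ran from -0.35 to 0.78. Between the KO labels it was -0.052 with the replicate block and ran from -1.42 to 0.79. For NTP in WT it was -0.25 with library totals only and -0.025 with 10 counts. HSP90AB1 for NTP ran from -0.43 to 2.67 with the hNABP2 KO label and from -0.19 to 4.13 with the hNABP1 KO label, where library totals gave -0.11. DNAJB2 in the blocked fit ran from -0.068 to 3.63, and HSPD1 from 1.62 to 5.97. As DNAJB2 had counts in repeat 3 only, its -0.068, from the fit without the hNABP1 KO label's repeat 3, is no estimate of the difference. The causes were not tested.

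Genes with a promoter peak in both ChIP repeats fell from 5 to 3 at a -log10 q of 5 or more, and 4 had overlapping peaks. At that minimum 4.23% of the protein-coding chaperone genes had a peak in both repeats, beside 4.28% of all protein-coding genes. In repeat 2 it was 5.63% beside 5.05%. The place of the chaperone genes below the protein-coding share thus depends on the minimum. With overlapping peaks it was 5.63% beside 9.72%. Mean chaperone shares moved by less than their wide SD, but without repeat 1 that of the hNABP2 KO label with NTP fell from 0.455% to 0.258% and that of WT with No NTP from 0.449% to 0.267%. Without DNAJB2 and HSPD1, added after seeing the data, the mean paired difference of the hNABP1 KO label from WT turned from 0.0448 to -0.0149 points. As both were picked as high with that label, a fall follows from the choice. Depth is a limit: 17 of 74 chaperone genes had under 10 counts in all 18 libraries together.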
